A study of Mus musculus with 8 samples.

Results

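The genes described here were the Zscan4 copies Zscan4b, Zscan4c, Zscan4d, Zscan4e and Zscan4f, the Tcstv genes Tcstv1 and Tcstv3, and Zfp352, 8 symbols that mark the 2-cell-like state of mouse pluripotent cells. They were taken by symbol from the gene table, in which 7 of the 8 had a row among 24354 genes, and Zscan4e had none and was not analysed here. The symbols were selected with their FPKM in these libraries known, so their levels are given as a description with no test. FPKM is the number of fragments per kilobase of transcript and per 1e+06 mapped fragments.

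Poly-A RNA was sequenced from 4 groups with 2 libraries each, 8 in all. The ESC group was the line E14, labelled wt, kept in serum and LIF on inactivated C3H mouse embryonic fibroblasts. EPSCs, extended pluripotent stem cells, were line 1 at passage 15 of C57BL/6 origin, also labelled wt, grown on the same kind of feeder cells in N2B27 with LCDM, a mixture in which human LIF is combined with CHIR99021, minocycline hydrochloride and dimethindene maleate. NSCs were neural stem cells with the OG2 transgene, which drives GFP from the distal enhancer of Oct4, and the ROSA26 lacZ transgene, grown on gelatin in N2 medium with EGF and FGF2. Hybrid cells were line 2-2 at passage 10, near-tetraploid GFP-positive cells made by polyethylene glycol fusion of EPSCs with these NSCs and grown in the EPSC medium on feeder cells. The study asked whether fusion with EPSCs brings a somatic genome to extended pluripotency. Each group was 1 line, and the spread within a group therefore describes repeated samples of that line. Strain, medium and line cannot be told apart between ESCs and EPSCs, and fusion, ploidy and line cannot be told apart between EPSCs and hybrid cells.

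In mouse embryos, the genome is first transcribed broadly at the 2-cell stage, and a set of genes including Zscan4, Tcstv and Zfp352 is expressed in a short burst at that time. In cultures of ESCs a small and changing fraction of cells re-enters this state for a while, with the transcription factor Dux as a known activator. The Zscan4 genes encode proteins with a SCAN domain and zinc fingers that are known for telomere maintenance and genome stability. The Tcstv genes are 2-cell-stage genes that have been linked to telomere length, and Zfp352 encodes a zinc finger protein of the early embryo. In bulk RNA, a larger fraction of cells in the state and more RNA in each such cell cannot be told apart.

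In RefSeq for GRCm38.p6, the build that corresponds to the mm10 of the deposited files, the Zscan4 genes lie together on chromosome 7. The cluster holds 9 genes and pseudogenes over 819.9 kb (chr7:10794241-11614112), of which 5 had a row in the table. Zscan4b (chr7:10900740-10905050), Zscan4c (chr7:11005745-11010547), Zscan4d (chr7:11161643-11166148) and Zscan4f (chr7:11397915-11402318) are its 4 protein-coding genes, while Zscan4a and Zscan4e are listed as pseudogenes. Tcstv1 (chr13:119893387-119894785) and Tcstv3 (chr13:120316862-120318261) lie on chromosome 13 beside their relatives AF067061 and AF067063, and Zfp352 (chr4:90218820-90225687) lies on chromosome 4.

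The sequence upstream of the Zscan4 genes is shown first, since these copies were low and high in the same groups and differ little there. Promoter windows from 250 bases before to 50 bases after the gene start were found in RefSeq (GRCm38.p6) for 5 of the 7 genes, and Tcstv1 and Tcstv3 had none in the table used. The 150 bases below run 5′ to 3′ on the strand of the gene, with the TATA box letters TATAAA in capitals. They were read from chr7:10905052-10905201 on the minus strand for Zscan4b, chr7:11005571-11005720 on the plus strand for Zscan4c, chr7:11166184-11166333 on the minus strand for Zscan4d and chr7:11397764-11397913 on the plus strand for Zscan4f.
Zscan4b: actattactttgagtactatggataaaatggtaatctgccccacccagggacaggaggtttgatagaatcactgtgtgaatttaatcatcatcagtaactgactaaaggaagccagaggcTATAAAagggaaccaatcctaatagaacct
Zscan4c: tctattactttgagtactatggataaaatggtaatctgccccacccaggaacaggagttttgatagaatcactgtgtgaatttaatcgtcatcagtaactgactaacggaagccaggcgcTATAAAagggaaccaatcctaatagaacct
Zscan4d: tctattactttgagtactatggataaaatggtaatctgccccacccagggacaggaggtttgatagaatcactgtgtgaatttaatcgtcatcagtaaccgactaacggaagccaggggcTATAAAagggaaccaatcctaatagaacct
Zscan4f: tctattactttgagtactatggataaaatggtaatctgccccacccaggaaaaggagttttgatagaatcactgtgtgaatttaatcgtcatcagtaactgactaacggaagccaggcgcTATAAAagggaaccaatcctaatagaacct
Between any pair of these windows 1 to 8 of 150 bases differed, with the least difference between Zscan4c and Zscan4f (99.3% identical) and the most between Zscan4b and Zscan4f (94.7%). TATAAA began 31 bases before the annotated start of Zscan4b and Zscan4f, 54 before that of Zscan4c and 65 before that of Zscan4d. On either strand, 13.6% of the 32851 promoter windows of 300 bases held these letters.

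The 250 bases before the start of Zfp352 (chr4:90218570-90218819, plus strand) are shown because they are built of a repeated unit that the Zscan4 windows lack. Capitals mark TAATCC, the letters bound by homeodomain proteins of the bicoid class.
Zfp352: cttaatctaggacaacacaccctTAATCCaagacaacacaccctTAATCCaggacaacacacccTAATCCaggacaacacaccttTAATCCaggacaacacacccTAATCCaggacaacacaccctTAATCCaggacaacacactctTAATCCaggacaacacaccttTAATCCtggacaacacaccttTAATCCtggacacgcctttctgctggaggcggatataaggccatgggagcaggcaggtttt
TAATCC or its reverse complement GGATTA stood 9 times in the 300-base window of Zfp352 and in none of the 4 Zscan4 windows. The letters were held by 7.1% of all 32851 windows, and no other window held 9 or more. Both motifs were chosen after the sequences were seen, and a match describes the letters only.

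Reads from copies this alike can match more than 1 of them. Of all 100-base windows of the GENCODE M21 transcripts, the share found in no other gene was 70.4% for Zscan4d, 27.2% for Zscan4c, 23.7% for Zscan4b and 19.4% for Zscan4f. Zscan4b shared 75.4% of its windows with Zscan4e, the copy without a row, and Zscan4f shared 67.5% with Zscan4-ps2 and 62.7% with Zscan4c. The Zscan4 values of single copies are therefore uncertain. The sum of the Zscan4 members is less so for reads shared among the members. It stays uncertain for reads shared with Zscan4a, Zscan4e or Zscan4-ps2, which lie outside it. Tcstv1 (96.4%), Tcstv3 (92.2%) and Zfp352 (99.4%) were nearly free of shared windows.

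All 7 genes were listed at 0 in both NSC libraries, low or at 0 in ESCs, and higher in EPSCs and hybrid cells. Summed over the 7 genes, ESC libraries held 1.04 and 0.866 FPKM, EPSC libraries 10.9 and 27.7, and hybrid libraries 31.1 and 36.7. The EPSC libraries stood apart from each other, and both lay above the ESC and below the hybrid libraries. As a mean, ESCs had 0.954 ± 0.125, EPSCs 19.3 ± 11.9 and hybrid cells 33.9 ± 3.98 summed FPKM (SD, n = 2 each). That is a ratio of 20.2 for EPSCs over ESCs and 35.6 for hybrid cells over ESCs. Without EPSC library 2 the ratio of EPSCs over ESCs was 11.4. Hybrid cells exceeded EPSCs 1.76 times in the mean, 3.13 times without EPSC library 2 and 1.225 times without EPSC library 1. The size of this difference thus rests on which EPSC library is used. Apparent depths, derived from the steps between FPKM values, were about 22 to 32.6 in units of 1e+06 fragments. At these depths each member rested on at most about 27.9 fragments in an ESC library. Zscan4c rested on about 440.5 and 556.8 in the hybrid libraries.

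**Figure D1:**
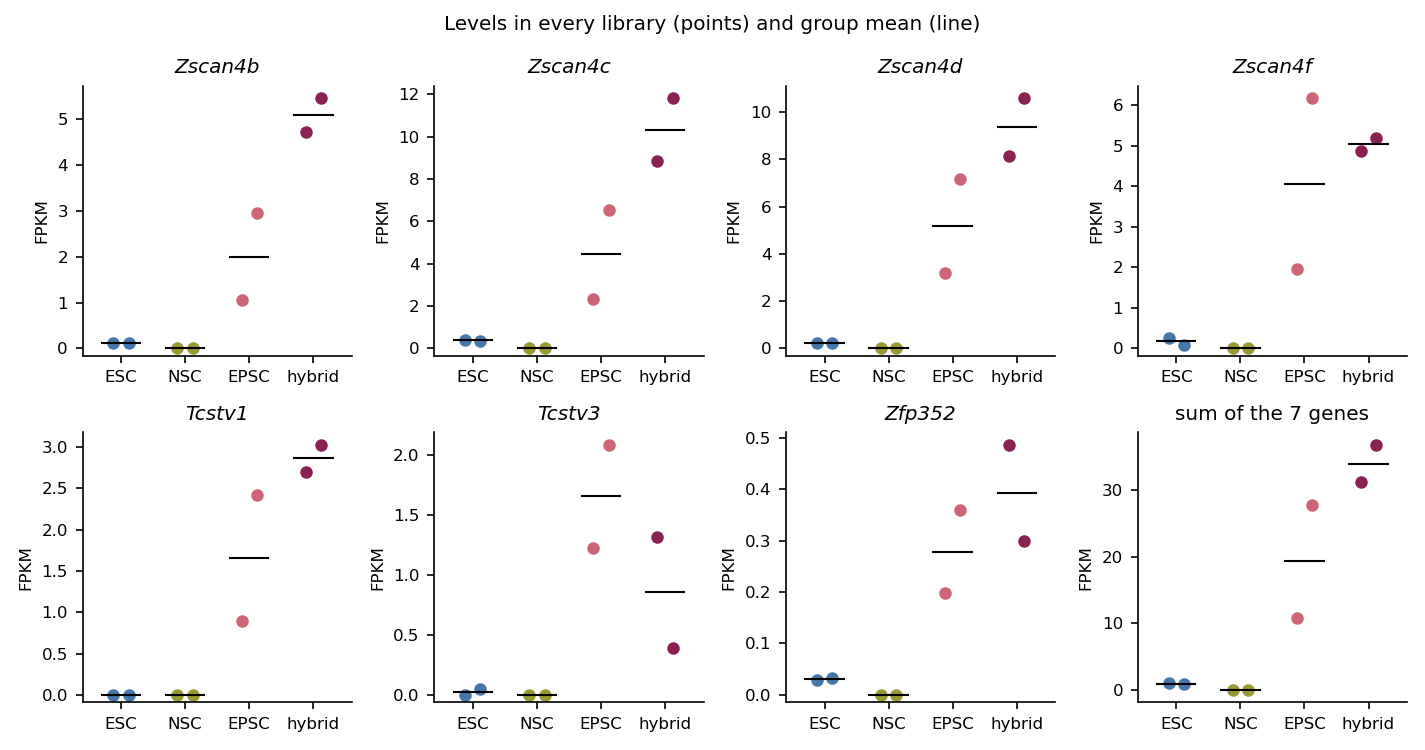
FPKM (y axis, linear, one scale per panel) of the 7 genes and of their sum in the 4 groups, with a point for each of the 2 libraries and a line at the group mean. NSC points lie at 0 in every panel, and in each gene both EPSC points lie above both ESC points.

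Zscan4c, with Zscan4d one of the most highly listed copies, was at 0.412 and 0.353 FPKM in ESCs, 2.34 and 6.55 in EPSCs and 8.86 and 11.8 in hybrid cells. The 3 groups did not overlap, and the means of 0.383 ± 0.0417, 4.44 ± 2.98 and 10.3 ± 2.09 FPKM (SD, n = 2) gave ratios of 11.6 for EPSCs over ESCs and 2.33 for hybrid cells over EPSCs. Zscan4d was at 0.221 and 0.223 FPKM in ESCs, 3.19 and 7.18 in EPSCs and 8.16 and 10.6 in hybrid cells. Its groups also did not overlap, with ratios of the means of 23.4 and 1.81 for the same comparisons. Because 70.4% of its transcript windows are its own, Zscan4d is the member of the Zscan4 cluster whose level depends least on how shared reads were assigned.

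Zscan4b was lower throughout, at 0.118 and 0.128 FPKM in ESCs, 1.05 and 2.95 in EPSCs and 4.71 and 5.45 in hybrid cells. Among the 7 genes it had the largest ratio of hybrid cells over EPSCs, 2.54, and its libraries did not overlap. Zscan4f was at 0.262 and 0.0815 FPKM in ESCs, 1.95 and 6.16 in EPSCs and 4.88 and 5.20 in hybrid cells. Here EPSC library 2 lay above both hybrid libraries, so the groups overlapped and the ratio of 1.24 for hybrid cells over EPSCs was within the spread of the EPSC libraries. Against ESCs, the EPSC means of Zscan4b and Zscan4f were 16.3 and 23.6 times as high.

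Every copy with a row was listed above 0 in each library of the pluripotent groups. How shared reads were assigned is not known, so a listed value does not show that a copy is expressed. Of the Zscan4 FPKM including Zscan4a, Zscan4c made up 27.4% and 30.9% in ESCs, 21.1% and 21.3% in EPSCs and 26.5% and 28.0% in hybrid cells. Zscan4d went from 14.7% and 19.5% in ESCs to 28.8% and 23.3% in EPSCs and 24.4% and 25.02% in hybrid cells. Zscan4a, the copy listed as a transcribed pseudogene, held the largest share in ESCs, 32.6% and 31.2%, and 20.4% to 25.9% in the other libraries. Zscan4b made up 9.52% and 9.58% in EPSCs and 14.1% and 12.9% in hybrid cells, and Zscan4f 17.6% and 20% against 14.6% and 12.3%. In ESCs these shares rest on about 4.0 to 27.9 fragments for each member.

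**Figure D2:**
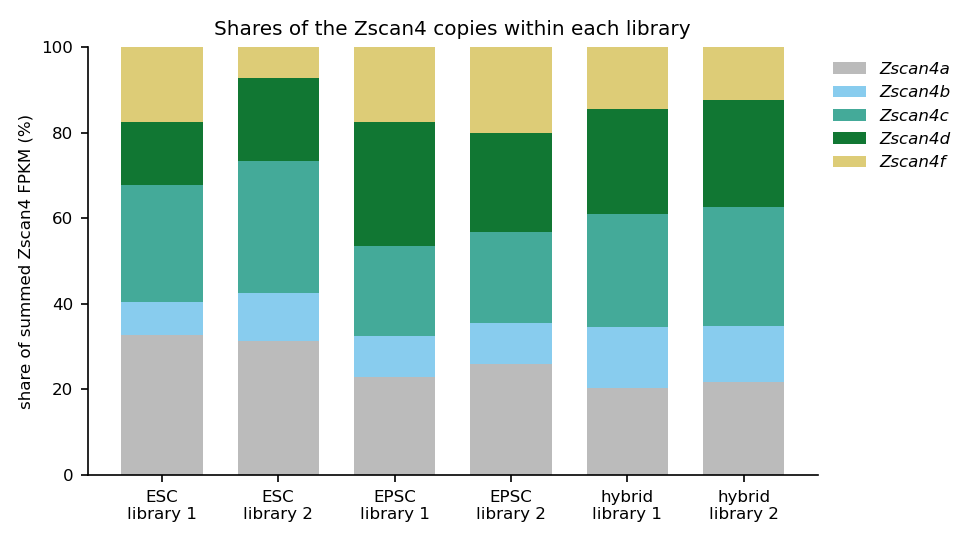
Share of the summed Zscan4 FPKM (y axis, percent) held by each copy with a row in the table, for the 6 libraries with a value above 0. Every copy is listed above 0 in every library shown, and the Zscan4a share is largest in the ESC libraries at 32.6% and 31.2%.

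Tcstv1 was listed at 0 in both ESC libraries as well as in both NSC libraries. It stood at 0.889 and 2.42 FPKM in EPSCs and at 2.71 and 3.03 in hybrid cells, so hybrid cells lay above EPSCs in both libraries, 1.73 times in the mean. A count of 0 allows up to 3 fragments, which for Tcstv1 is 0.0851 to 0.126 FPKM over the range of apparent depths, a bound for counting error only. Tcstv3 was at 0 and 0.0476 FPKM in ESCs, about 1 fragment, at 1.23 and 2.08 in EPSCs and at 1.32 and 0.394 in hybrid cells. Hybrid library 2 was below both EPSC libraries and hybrid library 1 between them, and the ratio of means was 0.517. Tcstv3 was thus the member whose mean was lower in hybrid cells than in EPSCs, a difference within the spread of these libraries, and the value of hybrid library 2 rests on about 5.2 fragments.

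Zfp352 was the least abundant of the 7. It was at 0.0297 and 0.0324 FPKM in ESCs, about 2.0 fragments in each library, at 0.198 and 0.359 in EPSCs and at 0.486 and 0.299 in hybrid cells. Its EPSC and hybrid libraries overlapped. It did not reach a mean of 1 FPKM in any group, the minimum for the genes that were tested, while the other 6 did.

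The order of the group means was NSCs, ESCs, EPSCs and hybrid cells for Zscan4b, Zscan4c, Zscan4d, Zscan4f and Zfp352. For Tcstv1 NSCs and ESCs were both at 0, and for Tcstv3 EPSCs stood above hybrid cells. In all 7 genes both EPSC libraries lay above both ESC libraries, as they did for 37.5% of the 19144 genes with a value above 0. In 4 of 7 genes both hybrid libraries lay above both EPSC libraries, against 29.4% of these genes, and nothing is read from either count, since the genes were chosen on these levels. The study states its rule with thresholds of 3 in its methods and of 2 in its results. Applied as a mean over 3 FPKM in the higher group and a ratio over 3, it passed Zscan4c, Zscan4d and Zscan4f as higher in EPSCs than in ESCs, and 1.28% of all genes listed. No member passed between hybrid cells and EPSCs (0.567% of genes), although Zscan4b and Zscan4c would at thresholds of 2, and all 4 Zscan4 members passed as higher in hybrid cells than in NSCs (6.92%) and than in ESCs (1.98%). Without EPSC library 2, Zscan4d alone would pass between EPSCs and ESCs, and 2 members would pass between hybrid cells and EPSCs.

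The 2 EPSC libraries stood apart in these genes. All 7 were higher in EPSC library 2 than in library 1, by a median of 2.72 times and a range of 1.70 (Tcstv3) to 3.16 (Zscan4f), and 5 of the 7 were over 2-fold higher. Over all 13239 genes tested, 2.22% were more than 2-fold higher in EPSC library 2, counting genes at 0 in library 1. Of the 13018 above 0 in both libraries, 1.81% were more than 2-fold higher, and the median ratio was 0.988. Other genes of the 2-cell-like state moved the same way, with 18 of the 19 related genes tested higher in library 2 and 14 of them over 2-fold. Of all tested genes above 0 in both libraries, 6089 of 13018 were higher in library 2. Of the 294 tested genes over 2-fold higher in EPSC library 2, 5 were members and 14 related genes. In hybrid cells 5 of the 7 members were higher in library 2, with a median ratio of 1.12. Tcstv3 (0.299) and Zfp352 (0.616) were lower. Of the 19 related genes tested, 17 were higher in hybrid library 2, with a median ratio of 1.35, and 1 was over 2-fold higher. Of all tested genes above 0 in both hybrid libraries, 6110 of 13038 were higher in library 2.

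**Figure D3:**
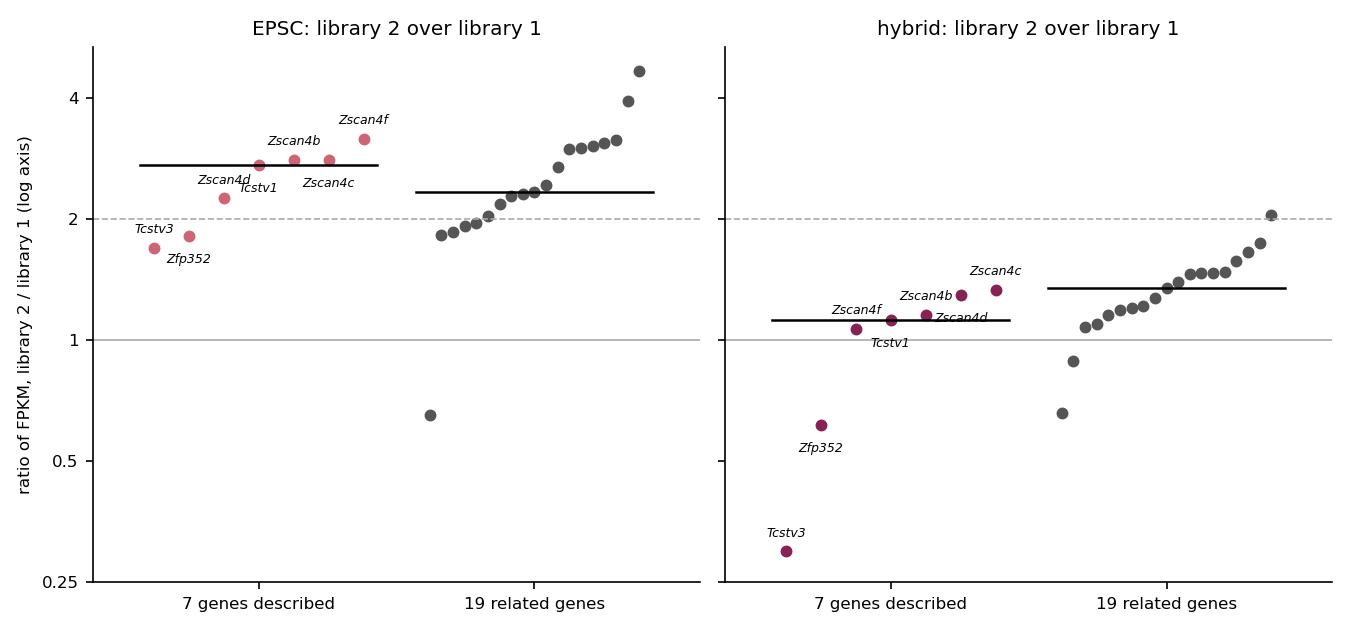
Ratio of FPKM in library 2 to FPKM in library 1 (y axis, log scale) for the 7 genes and for the 19 related genes that were tested, in EPSCs (left) and hybrid cells (right), with lines at the medians and at ratios of 1 and 2 (dashed). In EPSCs the 7 members lie between 1.70 and 3.16, whereas in hybrid cells their median is 1.12.

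Markers of other cells were compared in the same libraries. The summed level of 12 feeder fibroblast markers was 15.4 to 16.6 FPKM in ESCs, 15.1 to 16.1 in NSCs, 83.2 to 83.9 in EPSCs and 237 to 319 in hybrid cells. Of these 12, 10 were called higher in EPSCs than in ESCs and all 12 higher in hybrid cells than in EPSCs, beside 33.7% and 22.5% of all tested genes, so they moved in the order of the groups in which the members moved. Between the EPSC libraries the fibroblast sum had a ratio of 0.992 while the members were 1.70 to 3.16 times as high in library 2. In NSCs, 9 of the 12 had a mean under 1 FPKM, among them Col1a1, Col1a2 and Col3a1. The summed level of 5 trophoblast markers was 3.52 to 4.47 FPKM in ESCs, 9.56 to 13.2 in EPSCs, 5.47 to 7.57 in hybrid cells and at most 0.168 in NSCs, with a ratio of 1.38 between EPSC library 2 and library 1. It was thus higher in EPSCs as the members were, but lower in hybrid cells than in EPSCs. In the order ESCs, EPSCs, hybrid cells, the mean FPKM of Krt7 was 0.493, 5.81 and 1.69. In the same order Eomes had means of 2.86, 3.93 and 3.06, Gata3 of 0.408, 1.10 and 1.10, Cdx2 of 0.166, 0.481 and 0.661, and Elf5 was under 0.1 in each. The sum of 5 primitive endoderm markers was 4.67 to 4.75 FPKM in ESCs, 5.06 to 6.19 in EPSCs and 3.64 to 4.17 in hybrid cells, with a ratio of 0.816 between the EPSC libraries. Pdgfra, also one of the 12 fibroblast markers, had mean FPKM of 0.423, 1.24 and 2.31 in ESCs, EPSCs and hybrid cells. In that order Gata4 had means of 1.66, 0.798 and 0.155, Gata6 of 0.67, 0.517 and 0.262, and Sox7 of 1.67, 2.76 and 1.05. Sox17 had means of 0.283, 0.309 and 0.119. The part of feeder, trophoblast or endoderm cells in the difference between groups was not tested. The sum of 9 pluripotency markers was 4878 to 5781 FPKM in ESCs, EPSCs and hybrid cells and 119 to 123 in NSCs, and 9 neural stem cell markers summed to 3797 to 3844 FPKM in NSCs and 12.9 to 20.4 elsewhere, the order the labels imply.

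Beyond the members, 51 further genes known from the 2-cell-like state were followed. The list was chosen with earlier results of these data known. Its counts and p-values are therefore a description and no independent support for the members. Of the 51 genes, 45 had a row, 6 were at 0 in every library and 39 were not. Both EPSC libraries lay above both ESC libraries in 32 of these 39 genes, and both were below in 3, against 37.5% of all genes above. Both NSC libraries were at 0 for 39 of the 45, a count that includes the 6 at 0 in every library. In the whole table, 15405 and 15361 of 24354 genes were above 0 in the 2 NSC libraries. Of the 19 genes that reached a mean of 1 FPKM in a group and were tested with limma, 18 were called higher in EPSCs than in ESCs and none lower, where 33.7% of all 13239 tested genes were called higher and 27.3% lower. Only Cpsf4l reached that mean in ESCs. The other 18 entered the test through EPSCs or hybrid cells. The count of 18, and the differences and p-values of these genes, are therefore in part fixed by the filter. The median difference in log2(FPKM + 1) was 1.45 over the 19 genes and 0.04 over all tested genes.

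The largest of these differences were those of Gm5662 (log2 difference 2.43, SE 0.33, adjusted p = 6.4e-04), Gm5039 (2.11, SE 0.23, adjusted p = 2.2e-04) and Zscan4a (1.99, SE 0.38, adjusted p = 0.0029). Gm5662 was at 0.204 and 0.283 FPKM in ESCs, 3.597 and 8.74 in EPSCs and 9.29 and 14.6 in hybrid cells. Gm20767 (1.78, SE 0.33, adjusted p = 0.00273) and BC080695, a gene of the PRAME family (1.70, SE 0.19, adjusted p = 2.3e-04), followed. The deubiquitinase genes Usp17la, Usp17lb, Usp17lc and Usp17le were also called higher, by 0.99 to 1.61 on the log2 scale. Cpsf4l, the exception, was at 14.8 and 16.4 FPKM in ESCs and 13.7 and 8.92 in EPSCs (log2 difference -0.46, adjusted p = 0.11). The log2(FPKM + 1) scale understates changes of genes at such low levels.

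Between hybrid cells and EPSCs, 3 of the 19 related genes were called higher and none lower, where 22.5% of all tested genes were called higher and 21.9% lower. They were Gm2016 (log2 difference 1.61, SE 0.34, adjusted p = 0.00816), Gm2022 (0.94, SE 0.24, adjusted p = 0.0155) and Tmem92, which encodes a transmembrane protein (0.65, SE 0.19, adjusted p = 0.027). Gm2016 rose from 0.755 and 2.96 FPKM in EPSCs to 5.80 and 8.45 in hybrid cells, with no overlap. The median difference over the 19 genes was 0.54, and 0 over all tested genes, to the precision given. This count depended on single libraries and on the settings. It was 8 with the replicate number as a block, 6 without a filter on low values and 5 after scaling. Tmem92 did not pass without any 1 of the ESC, NSC or hybrid libraries, where its log2 difference was 0.595 to 0.697. Gm2022 did not pass without EPSC library 1 (log2 difference 0.668) or hybrid library 2 (0.617). The count was 14 without EPSC library 2, 6 without EPSC library 1, 5 without hybrid library 1 and 1 without hybrid library 2. With only these 2 groups in the limma fit it was 0, with 2 genes at an unadjusted p under 0.05. Both hybrid libraries lay above both EPSC libraries in 16 of the 39 related genes and below in 1, against 29.4% of all genes above. The comparison shares its EPSC libraries with that of EPSCs against ESCs.

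**Figure D4:**
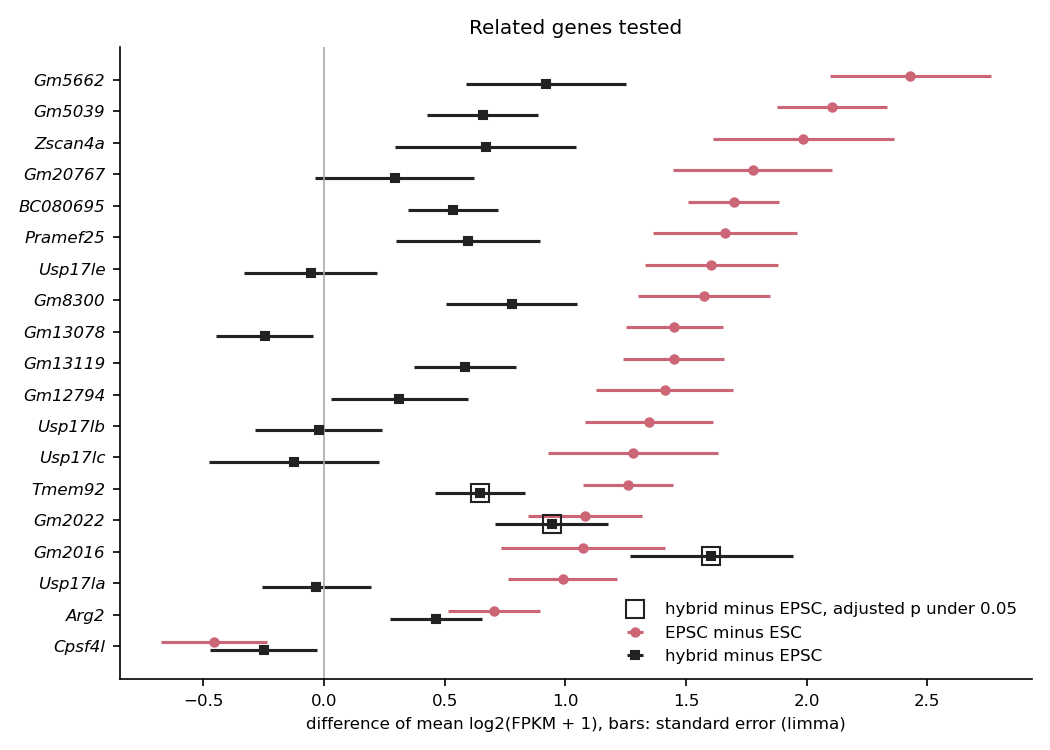
Differences of mean log2(FPKM + 1) with standard errors from limma (x axis) for the 19 related genes tested, for EPSCs minus ESCs (circles) and hybrid cells minus EPSCs (squares). Open frames mark the 3 genes called between hybrid cells and EPSCs, while 18 of the 19 circles lie above 0.

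All 19 related genes were called higher in hybrid cells than in NSCs, their other parent, against 44.5% of all tested genes called higher and 42.0% lower. All 19 were under 1 FPKM in NSCs and entered the test through another group, so this count is fixed in large part by the filter, as is that of 18 against ESCs. Most were listed at 0 in NSCs, so the log2 differences depend on the constant of 1 added to FPKM. They were 3.66 for Gm5662, 3.22 for Gm5039, 3.16 for Zscan4a and Cpsf4l, and 3.002 for Gm2016 (adjusted p = 4.0e-06 to 9.5e-05). Against ESCs, 18 were called higher in hybrid cells and Cpsf4l lower, where 35.3% of tested genes were called higher and 30.2% lower. Gm5662 (3.35), Gm5039 (2.76), Gm2016 (2.68), Zscan4a (2.65) and Gm8300 (2.35) had the largest log2 differences, and that of Cpsf4l was -0.71 (adjusted p = 0.024). The call of Cpsf4l was lost without either ESC library, either NSC library or hybrid library 2, with log2 differences of -0.78 to -0.44 and adjusted p from 0.0541 to 0.121.

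Among the known activators, Dux was near the limit of detection, at 0.0167 and 0.0182 FPKM in ESCs, 0 in both NSC libraries, 0.0249 and 0.191 in EPSCs and 0.137 and 0.0724 in hybrid cells. It was not tested. EPSC library 2 held its highest value, as it did for Zscan4f and Tcstv3. Dppa2 and Dppa4, which act upstream of Dux, were abundant in all 3 pluripotent groups. Dppa2 was at 72.8 and 73.4 FPKM in ESCs, 55.0 and 59.4 in EPSCs and 92.1 and 80.7 in hybrid cells. It was called lower in EPSCs than in ESCs (log2 difference -0.35, SE 0.08, adjusted p = 0.00566), where the members were higher, and higher in hybrid cells than in EPSCs (0.59, SE 0.08, adjusted p = 0.00125). Dppa4 followed the same course, with log2 differences of -0.32 (adjusted p = 0.00537) and 0.40 (adjusted p = 0.00365).

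Dppa3, a maternal factor, was at 31.7 and 32.2 FPKM in ESCs, 88.02 and 67.1 in EPSCs and 74.9 and 70.9 in hybrid cells. It was higher in EPSCs than in ESCs by 1.24 on the log2 scale (SE 0.12, adjusted p = 1.1e-04), and by 1.17 in hybrid cells than in ESCs (adjusted p = 1.1e-04). Between hybrid cells and EPSCs its log2 difference was -0.08 (adjusted p = 0.633). Over the 5 activators tested, 2 were called higher and 2 lower in EPSCs than in ESCs, and 2 higher and 1 lower in hybrid cells than in EPSCs, beside the shares of all tested genes given above (33.7% and 27.3%, then 22.5% and 21.9%). Compared with NSCs, hybrid cells had all 5 called higher, beside 44.5% of all tested genes, with Dppa4 at a log2 difference of 7.01 and Dppa2 at 6.43. Against ESCs, 2 were higher and 1 lower in hybrid cells, or 1 and 1 after scaling or quantile normalization, beside 35.3% and 30.2% of all tested genes before these. Dppa2 was the one whose call changed (log2 difference 0.24, adjusted p = 0.0276), and it was also lost without either ESC library (0.23 and 0.24, adjusted p = 0.119 and 0.106) or without hybrid library 1 (0.14, adjusted p = 0.126), with a constant of 0.1 (adjusted p = 0.0848) and with these 2 groups alone in the fit (adjusted p = 0.052). Dppa4 showed a difference of 0.08 from ESCs (adjusted p = 0.345), which was -0.066 after quantile normalization.

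The genes known to hold the 2-cell programme down were called in both directions. Of 24 tested, 8 were called higher and 10 lower in EPSCs than in ESCs, beside 33.7% and 27.3% of all tested genes. Their median log2 difference was -0.05, against 0.04 for all tested genes. Without either ESC library fewer of the 24 were called, and fewer of all tested genes as well. Between hybrid cells and EPSCs 6 were higher and 6 lower, beside 22.5% and 21.9%. Zfp42, also known as Rex1, a repressor of endogenous retroviruses of this stage, changed most in each of these 2 comparisons. It was at 346 and 335 FPKM in ESCs, 87.4 and 88.4 in EPSCs and 228 and 202 in hybrid cells. Its log2 difference was -1.94 in EPSCs against ESCs (SE 0.07, adjusted p = 1.9e-06) and 1.28 in hybrid cells against EPSCs (SE 0.07, adjusted p = 7.4e-05). In hybrid cells it stayed below ESCs by a log2 difference of -0.66 (adjusted p = 1.1e-04). Zfp42 was thus lower in EPSCs than in ESCs, where the 7 members were listed higher. In hybrid cells against EPSCs it was higher, as were both libraries of 4 of the 7 members, while Zscan4f, Tcstv3 and Zfp352 overlapped between these groups.

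**Figure D5:**
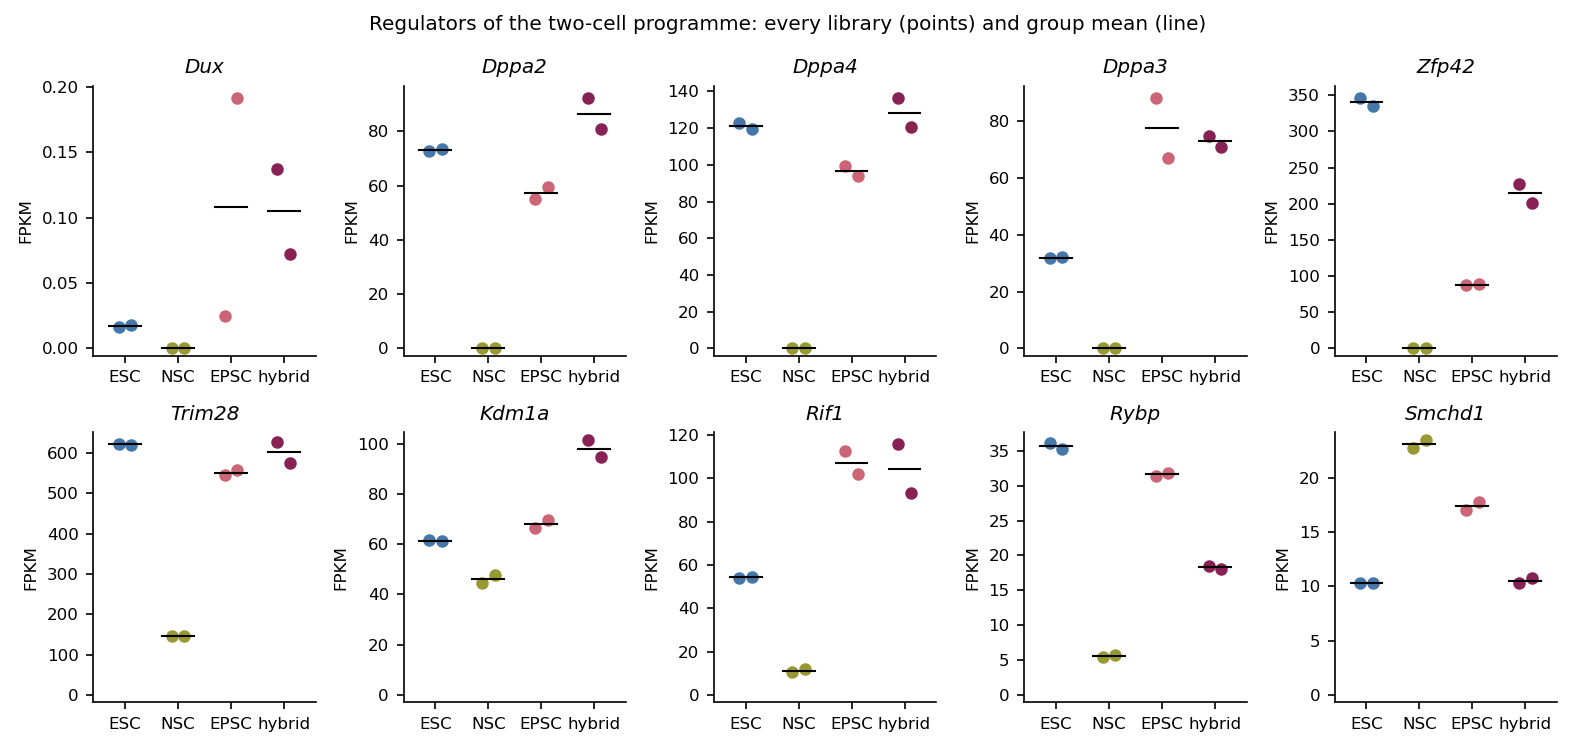
FPKM (y axis, linear, one scale per panel) of 10 regulators of the 2-cell programme in the 4 groups, with a point for each library and a line at the group mean. Zfp42 falls from 346 and 335 in ESCs to 87.4 and 88.4 in EPSCs, and Dux stays under 0.2 in every library.

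Rif1, known to repress the state, was higher in EPSCs as the members were. It was at 53.9 and 54.7 FPKM in ESCs, 112 and 102 in EPSCs and 116 and 93.1 in hybrid cells. Its log2 difference was 0.97 in EPSCs against ESCs (SE 0.11, adjusted p = 2.4e-04), -0.04 in hybrid cells against EPSCs (adjusted p = 0.77) and 0.92 in hybrid cells against ESCs (adjusted p = 2.3e-04). Kdm1a, the histone demethylase LSD1, was at 61.5 and 61.1 FPKM in ESCs, 66.6 and 69.8 in EPSCs and 102 and 94.5 in hybrid cells. It was higher in hybrid cells than in EPSCs by 0.52 (SE 0.06, adjusted p = 7.6e-04) and than in ESCs by 0.67 (adjusted p = 6.3e-05), while EPSCs and ESCs differed by 0.15 (adjusted p = 0.058, and 0.0401 to 0.0407 without either hybrid library or with these 2 groups alone, but 0.283 after scaling and 0.209 after quantile normalization, with differences of 0.09 and 0.084).

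Rybp, a subunit of Polycomb complexes, and Smchd1, a chromatin silencing protein, were lower in hybrid cells than in EPSCs. In NSCs, Rybp was at 5.5 and 5.76 FPKM and Smchd1 at 22.76 and 23.54. Rybp was at 31.4 and 31.9 FPKM in EPSCs and 18.6 and 18.1 in hybrid cells (log2 difference -0.76, SE 0.06, adjusted p = 1.7e-04), and also lower in hybrid cells than in ESCs (-0.93, adjusted p = 1.3e-05). Smchd1 was at 10.3 in both ESC libraries, 17.1 and 17.8 FPKM in EPSCs and 10.3 and 10.8 in hybrid cells (log2 difference -0.68, SE 0.06, adjusted p = 3.5e-04 for hybrid cells against EPSCs). Trim28, the corepressor KAP1, was at 623 and 621 FPKM in ESCs, 545 and 559 in EPSCs and 627 and 576 in hybrid cells. Its log2 difference of -0.17 in EPSCs against ESCs (adjusted p = 0.0298) did not pass when any single ESC, NSC or EPSC library was left out (adjusted p = 0.0522 to 0.12). Against EPSCs hybrid cells differed by 0.12 (adjusted p = 0.112), by -0.024 after quantile normalization, by 0.062 without hybrid library 1 and by 0.185 without hybrid library 2, where it was called higher (adjusted p = 0.0425). Against ESCs they differed by -0.05 (adjusted p = 0.464), 0.011 without hybrid library 2, and -0.34 after quantile normalization, where it was called lower in hybrid cells (adjusted p = 0.00127).

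Against NSCs, 15 of the 24 repressors were called higher in hybrid cells and 7 lower, beside 44.5% and 42.0% of all tested genes. After each library was scaled to the same FPKM sum, which moved the median of all tested genes from 0.06 to -0.50 on the log2 scale in this comparison, 13 were higher and 11 lower, beside 4244 genes higher and 8055 lower in all. Zfp42 (log2 difference 7.75) was listed at 0 in NSCs. Trim28 (2.03) and Kdm1a (1.07) were called higher in hybrid cells than in NSCs (adjusted p = 3.2e-08 and 1.0e-06). After scaling these differences were 1.42 and 0.46 (adjusted p = 1.6e-07 and 2.7e-04).

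Other genes with Zscan or SCAN zinc finger names were followed beside Zscan4. Of 17 tested, 4 were called higher and 3 lower in EPSCs than in ESCs, and 6 higher and 6 lower in hybrid cells than in EPSCs, with median log2 differences of 0.08 and 0.02. Of all tested genes, 33.7% were called higher and 27.3% lower in the first comparison, and 22.5% and 21.9% in the second. The 2 genes given next were chosen after their values were seen. Zscan5b had the group order of Zscan4, at 0 in both NSC libraries, 0.724 and 0.921 FPKM in ESCs, 1.05 and 1.21 in EPSCs and 2.05 and 2.34 in hybrid cells. It was called higher in hybrid cells than in EPSCs (log2 difference 0.59, adjusted p = 0.00198), while EPSCs and ESCs differed by 0.23 (adjusted p = 0.0539). Zscan10, a pluripotency factor, was at 82.4 and 80.8 FPKM in ESCs, 66.7 and 61.9 in EPSCs and 81.7 and 81.9 in hybrid cells. Against NSCs 7 of the 17 were higher and 5 lower in hybrid cells, beside 44.5% and 42.0% of all tested genes. After scaling to the same sum 3 were higher and 10 lower, beside 4244 and 8055 of all genes tested then. Against ESCs 5 were higher and 4 lower, beside 35.3% and 30.2%.

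The genes whose pattern was most like the summed level of the members were ranked by Pearson r of log2(FPKM + 1) over the 8 libraries, 2 of each line, as a description. Gm5039 came first (r = 0.999), followed by Mgst2, a glutathione transferase, and Hal, histidine ammonia-lyase. Zscan4a, Clmp, Arl14epl, Fancm, Gm694, Itgal and Sohlh2 completed the 10 most alike, in order of falling r, down to 0.9919 for Sohlh2. Fancm, a helicase of the Fanconi anemia pathway, was at 8.001 and 7.97 FPKM in ESCs, 20.1 and 23.1 in EPSCs and 25.01 and 27.6 in hybrid cells. Sohlh2, a germ cell transcription factor, was at 0.869 and 0.917 FPKM in ESCs, 9.96 and 12.5 in EPSCs and 24.8 and 27.2 in hybrid cells. Arl14epl had the highest level of the 10 in hybrid cells, 60.7 and 64.3 FPKM, against 2.42 and 1.68 in ESCs. The EPSC libraries lay closer in these 3 genes than in the members, with ratios of library 2 to library 1 of 1.15 for Fancm, 1.25 for Sohlh2 and 1.53 for Arl14epl, while Zscan4a had 3.14. Among the 50 genes most alike, 9 were related genes, where 19 of all 13233 genes ranked were related genes. Of these 19, only Cpsf4l reached a mean of 1 FPKM in ESCs. The others entered the ranking through EPSCs or hybrid cells, so their likeness to the members is in part fixed by the filter. Zscan4a also shares 30.5% of its transcript windows with Zscan4c. Nothing is read from this count.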

How the data were processed

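The authors trimmed the reads of stranded poly-A libraries with skewer, aligned them to mm10 with STAR 2.7.9a, and deposited FPKM as given by Cuffnorm 2.2.1 of Cufflinks, 1 column per library. The gene annotation, the strand setting, the handling of reads shared by copies and the library normalization are not given in the sources used here. All 8 columns were mapped by their labels. No read counts were used. The members and gene lists were chosen with earlier results of these data known.

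Groups were compared with limma 3.58.1 in R 4.3.3 with a mean-variance trend, applied to log2(FPKM + 1). All 4 groups entered 1 two-sided fit (4 residual and 3.25 prior degrees of freedom). Genes whose mean FPKM reached 1 in a group, 13239 in all, were tested, and genes were called at a Benjamini-Hochberg adjusted p under 0.05. The p-values rest on the spread between the 2 samples of each line, pooled over the 4 lines and moderated by the prior. For a gene at 0 in both NSC libraries, NSCs add no spread to this estimate. The script was tested on simulated data. In each comparison the text names the 5 called related genes with the largest log2 difference in each direction, Dux, Dppa2, Dppa4, Zfp42, Trim28 and Kdm1a, the 3 called regulators with the largest difference, and the 10 genes most like the members. Usp17l genes, the fibroblast markers named, Zscan5b and Zscan10 were picked after their values were seen. The rule of the study was applied to group means with nothing added. Depth was derived with Python 3.11.15 from the steps of FPKM of genes with 1 GENCODE M21 transcript over 1500 bases, at an assumed fragment length of 200. Fragment numbers are approximate, with 72.4% to 82.0% of low values within 0.1 of a whole fragment.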

Additional observations from a re-analysis of the deposited data

How the results depend on the processing

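The counts of related genes, repressors and all genes called, and most genes named in a comparison, were recomputed under other settings. These were the replicate block, a constant of 0.1, no filter on low values, libraries scaled to a sum of 1000000 and quantile normalization. The others were the 2 compared groups alone and each library left out. The Usp17l genes, Zscan5b, Zscan10 and the cell markers were not recomputed. Neither were Cpsf4l between EPSCs and ESCs, nor Dppa3 and Rif1 between hybrid cells and EPSCs. Member sums and counts by the rule of the study were recomputed with scaling and with each library left out, and activator and other Zscan counts with scaling and quantile normalization. The number of related genes called between hybrid cells and EPSCs, 3, was 8 with the replicate block, 6 without a filter, 5 after scaling, 0 with the 2 groups alone (2 at an unadjusted p under 0.05 in limma) and 1 to 14 with 1 library left out. Deviations of same-numbered libraries correlated at 0.28 between EPSCs and hybrid cells, and at -0.112 to 0.069 in the other pairs of groups. The labels give the replicate numbers no further meaning. Between EPSCs and ESCs the repressors called, 18, ranged from 11 to 19 with a library left out. With the 2 groups alone, 6 repressors and 2811 genes in all were called between hybrid cells and EPSCs. Without a filter, 33 related genes were called in hybrid cells against NSCs and 29 against ESCs, where 39 had a value above 0. Of all genes, 13278 and 9672 were then called, instead of 11449 and 8667. The sum of the Tcstv members alone gave ratios of 139 (EPSCs) and 156.3 (hybrid cells) over ESCs, which rest on about 1 fragment in 1 ESC library. The ratio of summed members for hybrid cells over EPSCs ranged from 1.23 to 3.13 with a library left out. Without EPSC library 2 it was 3.13, 1 member passed the rule of the study as higher in EPSCs than in ESCs, and 2 passed as higher in hybrid cells than in EPSCs. At thresholds of 2 the last count was also 2. Trim28 in hybrid cells turned to -0.024 against EPSCs (quantile normalization), was 0.185 without hybrid library 2 (adjusted p = 0.0425), and ranged from -0.111 to 0.011 against ESCs with a library left out (-0.34 with quantile normalization, called lower at an adjusted p of 0.00127), and Dppa4 against ESCs turned to -0.066 (quantile normalization) and ranged from -0.006 to 0.167. The cause was not tested. Depth limits Tcstv3, Zfp352 and Dux, and all members in ESCs.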
